A study of Homo sapiens with 9 samples.

Results

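Wide loci are stretches of small RNA signal that ran over 200 bases or more of a single strand. They were chosen by their measured width, as the rows on chromosomes 1 to 22 whose end minus start was at least 200 bases in a deposited list of loci, which is named for the TCGA breast cancer cohort and the peak caller Piranha. There were 586 of them among 102826 loci on these chromosomes (0.570%, interval 0.525 to 0.618) and 108742 loci in the whole list. The list accompanies 9 small RNA libraries of the human breast cancer line MDA-LM2, a metastatic derivative of MDA-MB-231, with 2 libraries each from DCGR8 knockdown (the labels' spelling of DGCR8), DROSHA knockdown and TARBP2 knockdown, 1 from DICER knockdown and 2 from cells given a control siRNA. All 9 came from the same line, RNA was isolated with a small RNA kit, and the labels do not say whether libraries of a group came from separate cultures. None of the 9 libraries has a column in the list, so no knockdown was compared with its control, and neither the loss of the targeted genes nor the depth of any library can be read from it. The list is a positions-only summary over a cohort: each row has a score of 1, neither the number of patients nor the threshold is given in the sources used here, and a locus says that reads piled up, not how many.

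Small RNA libraries are built to catch RNAs about as long as a mature microRNA (miRNA), and such reads usually stack into narrow piles. A pile much wider than a miRNA can come about where several hairpins lie in a row, where a longer structured RNA is read along its whole length, or where fragments of a long RNA tile an exon. The annotated RNAs concerned have well known roles: miRNAs direct Argonaute proteins to mRNAs, small nucleolar RNAs (snoRNAs) guide modification of ribosomal RNA, small nuclear RNAs (snRNAs) build the spliceosome, 7SL is the RNA of the signal recognition particle and 7SK restrains transcription elongation. Intervals in parentheses are exact Clopper-Pearson 95% intervals. They cover counting error only, and loci of 1 gene are not independent of each other.

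Width chose the loci, so their widths are a description. The median width was 250 bases, with 249 loci of exactly 200 bases, 133 of 250, 143 of 300 to 450, 39 of 500 to 950 and 22 of 1000 bases or more. Together they held 225250 bases, 4.03% of the 5586150 bases in all loci on these chromosomes, and the 22 widest accounted for 67750 of them. Every start and end lay on a grid of 50 bases, so a locus can reach past the RNA beneath it by up to a bin at each end. Just inside the limit, the first loci of exactly 200 bases along the genome lay over ENO1 (glycolytic enolase), RNU5E-1 (a U5 snRNA), RNU1-1 and RNU1-3 (U1 snRNAs) and the pseudogene AL669831.3 of the mitochondrial-like stretch on chromosome 1. Just outside it, among 1063 loci of 150 bases, the first lay over AL669831.3, AGRN, MIR429, SDF4 and an intron of RER1. The 200-base loci included 127 in coding sequence, 34 in untranslated regions, 21 on snRNAs, 19 on snoRNAs and 27 outside every annotation class used here. For the 150-base loci these counts were 393, 132, 20, 83 and 273.

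Most wide loci lay on mRNA exons. Counting any shared base of the same strand, coding sequence (CDS) held 248 (42.3%, 38.3 to 46.4) and untranslated regions (UTR) a further 64 (10.9%). The 4 small RNA classes held 125 (21.3%, 18.1 to 24.9), namely 40 loci on snRNAs, 37 on snoRNAs including small Cajal body RNAs, 26 on miRNAs and 22 on the misc_RNA class of 7SL, 7SK and Y RNA genes and their copies. Exons of long noncoding RNAs (lncRNAs) held 18, introns 37, and 94 (16.04%, 13.2 to 19.3) fell into no class. Of the 18 lncRNA loci, 3 lay on other small RNAs (RMRP, RPPH1 and RF01684), which the small RNA share leaves out. Of the 37 intron loci, 6 also lay on ribosomal RNA and 8 on a pseudogene. Set beside narrower loci, small RNA classes took 21.3% of wide loci, 18.1% of loci of 100 to 150 bases and 1.40% of loci of 50 bases or fewer. CDS and UTR together took 53.2%, 40.0% and 11.98%, and no class 16.04%, 29.2% and 58.9%. A wide locus meets an annotated gene more easily than a narrow one, and these differences were not tested. By the class of the middle base alone, which does not gain from width, small RNAs took 16.04% of wide loci, against 17.8% and 1.20%, and CDS with UTR 52.9%, against 39.0% and 11.3%. Under that rule 8 wide loci were on miRNAs, 213 in CDS and 97 in UTR.

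**Figure D1:**
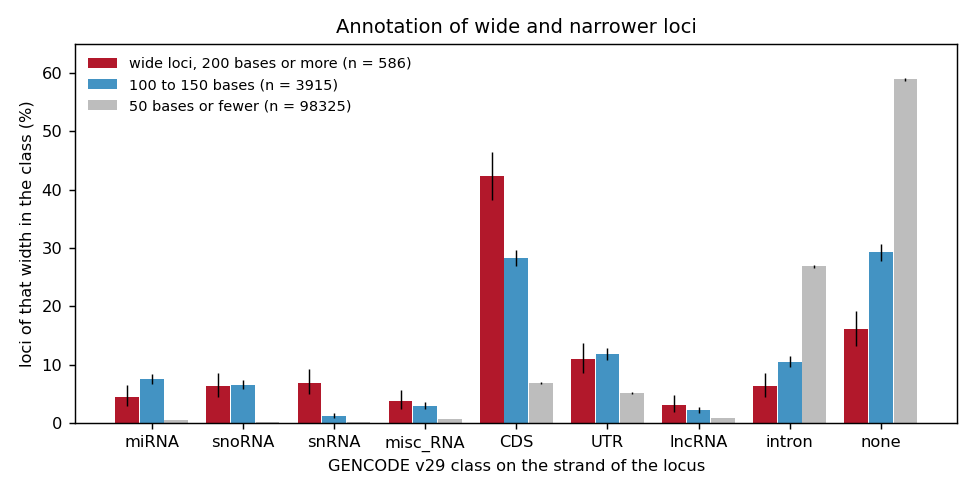
Share of loci in each annotation class (vertical axis, percent) for wide loci, loci of 100 to 150 bases and loci of 50 bases or fewer. Lines are exact 95% intervals for counting error. CDS takes 42.3% of wide loci and the class "none" 16.04%, against 58.9% of loci of 50 bases or fewer in "none".

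Some wide loci ran over several small RNA genes. Of 586, 20 (3.41%, 2.10 to 5.22) covered at least part of 2 or more genes that do not overlap, 46 genes in all, while 118 wide loci lay over 1 small RNA gene and 448 over none. The kinds were miRNAs alone in 14 loci, snoRNAs alone in 3, and 1 each of tRNAs alone, miRNA with snoRNA and miRNA with tRNA. The most genes in 1 locus were 4 hairpins of the MIR941 array within DNAJC5, under a locus of 750 bases. The hairpin MIR941-2 lay there too but overlaps a counted one. Widening the rule to 150 bases left this count at 20.

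The miR-17-92 cluster, a polycistron known for driving growth in several cancers, lay under a pair of loci with 100 bases between them. The locus chr13:91350551-91350950, of 400 bases on the plus strand, covered MIR17, MIR18A and MIR19A, and 53.8% of its bases were hairpin. The second, chr13:91351051-91351400, of 350 bases, covered MIR20A, MIR19B1 and MIR92A1, and 67.4% of it was hairpin. These 2 loci were the only ones of any width on the exons of the host gene MIR17HG, and between them they lay on all 6 hairpins. The first locus stopped inside MIR19A, leaving 11 bases of miR-19a-3p outside. The mature sequences are shown because several share a seed, the stretch that pairs with targets, although they lay under separate wide loci. They are RefSeq sequences (GRCh38.p14), 5′ to 3′, with the seed (bases 2 to 8) in capitals.
miR-17-5p: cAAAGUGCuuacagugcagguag
miR-20a-5p: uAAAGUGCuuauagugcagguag
miR-93-5p: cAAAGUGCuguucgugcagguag
miR-18a-5p: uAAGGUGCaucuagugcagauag
miR-19a-3p: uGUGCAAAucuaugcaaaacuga
miR-19b-3p: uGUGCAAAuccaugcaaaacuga
miR-92a-3p: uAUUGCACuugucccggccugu
miR-25-3p: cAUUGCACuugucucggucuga

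The seed AAAGUGC was shared by miR-17-5p, miR-20a-5p and miR-93-5p, GUGCAAA by miR-19a-3p and miR-19b-3p, and AUUGCAC by miR-92a-3p and miR-25-3p. Of these, miR-93 and miR-25 come from the paralogous cluster within MCM7. There chr7:100093551-100093850, 300 bases on the minus strand, covered MIR25 and MIR93 whole. The remaining hairpin of that cluster, MIR106B, lay under a separate locus of 150 bases with 100 bases between.

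Other known clusters also lay under single loci. The locus chr19:13836251-13836650 (400 bases, minus) held MIR23A, MIR27A and MIR24-2, with 1 base of miR-23a-5p outside. The locus chr17:28861351-28861750 (400 bases, minus) held MIR451A, MIR144 and MIR4732, where MIR144 and MIR451A are known from red blood cell development. The locus chr13:50048951-50049200 (250 bases, minus) held MIR15A and MIR16-1, which lie in DLEU2 and are known for repressing BCL2, and whose main arms share the seed AGCAGCA.
miR-15a-5p: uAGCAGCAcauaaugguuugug
miR-16-5p: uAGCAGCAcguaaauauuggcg
miR-23a-3p: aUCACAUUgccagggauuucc
miR-27a-3p: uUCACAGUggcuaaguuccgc
miR-24-3p: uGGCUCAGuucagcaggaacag
miR-144-3p: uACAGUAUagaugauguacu
miR-941: cACCCGGCugugugcacaugugc

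The remaining miRNA pairs were MIR449A with MIR449B in CDC20B (250 bases), MIR99B with MIRLET7E in SPACA6 (250), MIR376A2 with MIR654 in the imprinted cluster of chromosome 14 (250), MIR4763 with MIRLET7B (200) and MIR4725 with MIR365B (200). Together with the MIR3648 and MIR3687 copies described with ribosomal RNA below, 47 of 1761 annotated miRNA genes on these chromosomes lay under a wide locus, a background of 2.67%. Of 44 miRNA genes counted as separate genes under wide loci, 39 were found in the RefSeq table. RefSeq placed 79 mature miRNA entries under wide loci, counting miR-941 once per hairpin and including genes that only RefSeq annotates. Of these entries, 73 lay wholly inside, and the other 6 lost 1 to 20 bases at a locus edge.

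**Figure D2:**
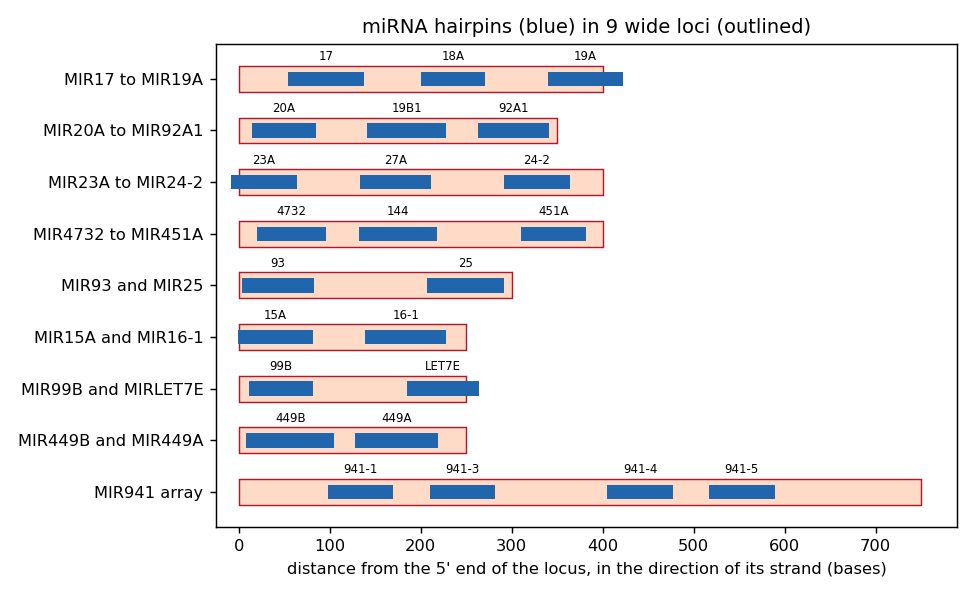
Hairpins (blue) within 9 wide loci that cover several miRNAs (outlined), drawn from the 5′ end of each locus in bases. MIR19A, MIR23A, MIRLET7E and, by 1 base, MIR15A reach past the edge of their locus.

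Most listed cluster members had no wide locus. Of 32 listed members of miRNA clusters, 13 had a wide locus, against the background of 2.67%, and all 32 had a locus of some width. Among the 19 without, the widest locus was 150 bases for 5 genes (MIR106B, MIR141, MIR27B, MIR429 and MIRLET7A1), 100 for 12 and 50 for MIR16-2 and MIR200C. Thus MIR23A, MIR27A and MIR24-2 shared 1 locus of 400 bases, whereas their paralogs MIR23B, MIR27B and MIR24-1 each had a locus of their own, of 100, 150 and 100 bases.

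Among snoRNA genes, 45 of 942 snoRNA and scaRNA genes lay under a wide locus (a background of 4.78%). The 3 pairs were SNORD104 with RF00407, which overlaps SNORA50C (chr17:64145951-64146500, 550 bases, in the host SNHG25), SNORD42A with SNORD4B in RPL23A (350 bases) and SNORD34 with SNORD35A in RPL13A (350 bases). RPL23A and RPL13A encode ribosomal proteins, and 189 and 200 bases separated the snoRNAs of these pairs. A locus of 300 bases in TAF1D covered SNORA18 and the miRNA MIR1304.

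Among single structured RNAs, H/ACA snoRNAs were mostly covered whole. H/ACA snoRNAs, which guide pseudouridylation, had 21 wide loci with no second small RNA gene beside them. Of these, 17 covered the gene entirely, with a median overhang of 29 bases at the 5′ end and 29 at the 3′ end. The median gene length was 137 bases, below the limit of 200, so the width rule by itself favours whole coverage and overhang. In 2 of the 21, over SNORA36B and SNORA81, mature miRNAs of the overlapping genes MIR664A and MIR1248 lay inside the locus too, and these count in the miRNA class. SNORA73A (206 bases), SNORA74A (198) and SNORA74B (201) each lay wholly within 250 bases. Of the small Cajal body RNAs, which guide modification of spliceosomal RNA, 3 of 33 had a wide locus: SCARNA13 and SCARNA3 were covered whole, and SCARNA2 over 59.5% of its length. Among 16 listed RNAs of the rRNA processing machinery, 8 had one. SNORD118, the U8 RNA needed for large subunit rRNA processing, lay whole under 250 bases. The 5 loci on SNORD3 genes, which encode U3, began 35 to 45 bases inside the annotated 5′ end and covered a median of 35.8% of the gene as GENCODE draws it.

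Wide loci on snRNAs leaned to the 3′ side. Of 1799 annotated snRNA genes, 40 had a wide locus (a background of 2.22%), and 39 loci held a single snRNA. Their median width was 200 bases over a median gene length of 165. The locus began a median of 7 bases inside the 5′ end (at most 29 bases before it) and ran a median of 67 bases past the 3′ end (0 to 204). It reached further beyond the 3′ end than the 5′ end in 37 of 39, and 50 bases or more past the 3′ end in 21, against 0 at the 5′ end. Most of the 39 lay on U2 and U1 genes, among them identical copies, so they do not count as independent RNAs. A grid of 50 bases can by itself leave up to 49 bases at an end. A locus of 200 bases or more must also run past any shorter gene at 1 end or both. Overrun as such thus follows from the width rule, which sets no side. RNU7-1, the U7 RNA of histone mRNA processing, is 63 bases long and its locus of 250 bases ran 172 bases past its end. RNU5F-1 was overrun by 135 bases and RNU12, a U12 RNA of the minor spliceosome, was covered over 95.3% by a locus of 300 bases. Of the 39 genes, 16 were covered whole, with a median coverage of 95.3%, and RNU5D-1 was covered over 39.7%, with 204 bases of the locus beyond it.

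By family, U2 accounted for 19 of these loci and U1 for 12. Of the U2 genes, 13 lay in the tandem array on chromosome 17 that begins with RNU2-1, and these were all the U2 genes GENCODE places in it. Their loci ran from 200 to 400 bases with a median of 250, and 10 of the other copies were identical in sequence to RNU2-1. A read from 1 such copy cannot be told apart from a read of another, and neighbouring copies of the same sequence still had loci of different widths. The 4 U1 genes RNU1-1, RNU1-2, RNU1-3 and RNU1-4 were identical over 164 bases too, with loci of 200, 250, 200 and 200 bases. The locus covered 164 of the 191 bases of RNU2-1 and left out the first 27. Bases 13 to 42 of its transcript are shown (GENCODE v29, GRCh38, chr17:43233936-43233965, minus) because the edge of the locus falls in them, with capitals for the bases inside it.
RNU2-1: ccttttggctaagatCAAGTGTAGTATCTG

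From the first capital on, the locus held the rest of the transcript and ran 36 bases past its end. Of 24 listed spliceosomal snRNAs, 14 had a wide locus and all 24 had some locus. The 10 without included RNVU1-7, RNU4-2, RNU5A-1 and RNU5B-1, RNU6ATAC and all 5 listed U6 genes.

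Loci on the 7SK and 7SL families mostly stopped short of the 3′ end. Of 2105 misc_RNA genes, 23 had a wide locus (a background of 1.09%). The gene RN7SK, which GENCODE types as an snRNA, was covered whole by 350 bases, as were RN7SL1 and RN7SL2. Loci on 14 copies of 7SK, by contrast, covered 58.0 to 88.3% of the annotated copy with a median of 74.9%, began a median of 1.5 bases before its 5′ end and stopped a median of 73.5 bases short of its 3′ end. The 7 loci on 7SL genes and copies covered a median of 75.1% and stopped a median of 50 bases short. The copies resemble the parent gene, and reads of the parent cannot be told apart from theirs in this list. RMRP, the RNA of RNase MRP, and RPPH1, the RNA of RNase P, were covered over 100% and 97.9% by 350 bases each. With those 2, 5 of 13 listed RNAs of RNA polymerase III had a wide locus, and the Y RNAs RNY1, RNY3 and RNY4 and 4 vault RNAs did not. Nuclear tRNA genes rarely did: 7 of 425 (1.65%, 0.665 to 3.36) lay under a wide locus with strand ignored, although 417 had a locus, most often of 100 bases (270 genes) or 150 bases (98). The only pair of tRNA genes in 1 locus, TRY-GTA5-2 and TRA-AGC8-2, lay under 350 bases of chromosome 8.

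**Figure D3:**
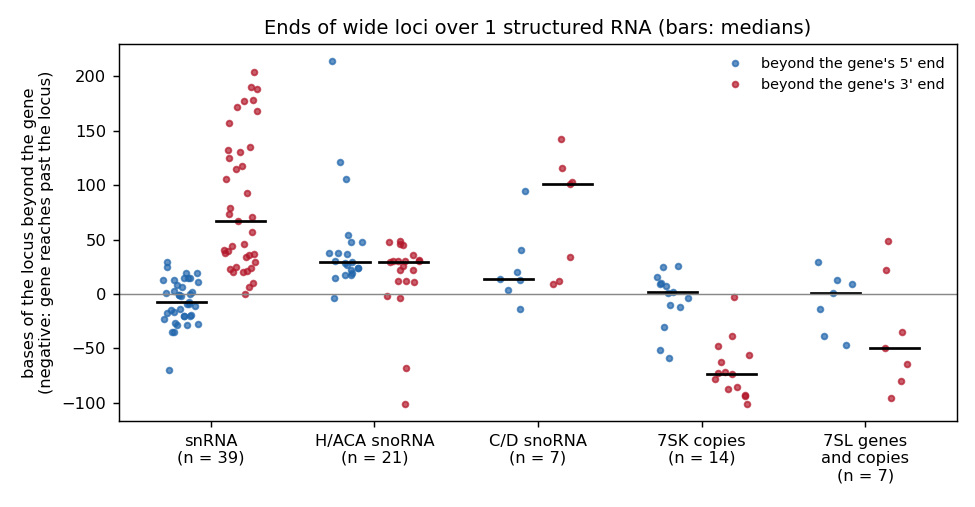
Bases by which wide loci over a single structured RNA extend beyond the gene's 5′ end (blue) and 3′ end (red), one point per gene, with medians as bars. Negative values mean that the gene reaches past the locus. C/D snoRNAs are drawn without the SNORD3 genes. snRNA loci run a median of 67 bases past the 3′ end, and loci on 7SK copies stop a median of 73.5 bases short of it.

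Ribosomal RNA genes gave the widest loci of all. On chromosome 21 between 8.2 and 9 Mb, 15 wide loci, all on the plus strand, held 49500 bases, 21.98% of all bases in wide loci, and 11 of the 22 loci of 1000 bases or more. The whole window held 58 loci and none on the minus strand. The widest locus on these chromosomes, chr21:8433551-8446200, ran for 12650 bases without a break over RNA45SN1, the RefSeq gene for the ribosomal RNA precursor, and covered 94.7% of its 13351 bases. RNA45SN2 was covered over 94.3% by 3 loci and RNA45SN3 over 93.2% by 4. In all 3 genes the 18S and 5.8S parts were covered whole and 28S over 99.8 to 100%, and the spacers that are removed in maturation were covered too. The breaks that split RNA45SN2 and RNA45SN3 into several loci were 100 or 150 bases long and lay in spacers, not in the mature RNAs. Since the 3 genes are near copies, reads of 1 cannot be assigned to it. GENCODE does not annotate the 45S precursor, so the rule put these loci into "none", "intron" or, where the hairpins MIR3648 and MIR3687 lie in the same transcript, "miRNA".

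The first locus of RNA45SN2, chr21:8206301-8209250 of 2950 bases, is the one counted under MIR3648-1 and MIR3687-1. Hairpins made up 8.17% of it, against 53.8% for the first miR-17-92 locus. The second such locus, 2100 bases over MIR3648-2 and MIR3687-2 (chr21:8986651-8988750), was 11.5% hairpin and had no 45S gene beneath it in the table. Without the loci of this window, 24 miRNA-class loci, 31 intron loci and 87 loci outside any class remained.

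**Figure D4:**
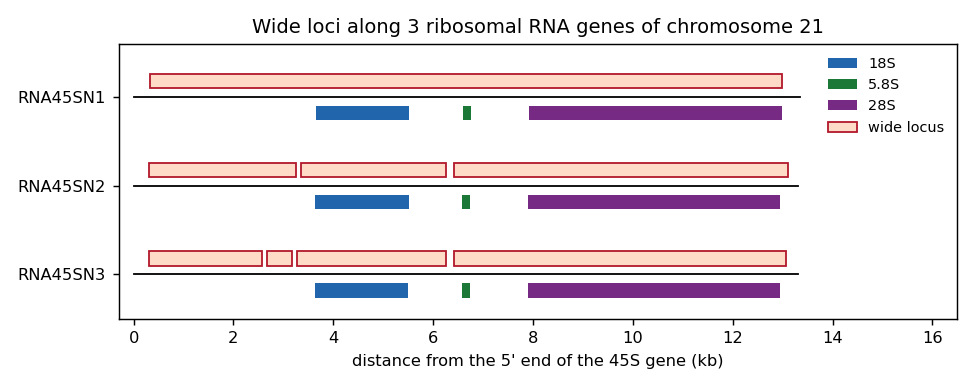
Wide loci (outlined) along 3 ribosomal RNA genes of chromosome 21, with the mature 18S, 5.8S and 28S parts below each line, by distance from the 5′ end of the 45S gene in kb. RNA45SN1 lies under a single locus of 12650 bases, RNA45SN2 under 3 loci and RNA45SN3 under 4.

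Nuclear copies of mitochondrial DNA made up another group. By GENCODE gene names they held 25 wide loci and 16300 bases, 7.24% of all bases in wide loci, and in 20 the copy lay on the strand of the locus. RefSeq names added 4 loci, which gave 29 loci and 18450 bases (8.19%). The widest, chr1:629101-634900, ran for 5800 bases across 7 pseudogenes from MTND1P23 to MTCO3P12, which copy subunit genes of the respiratory chain. The next, chr5:134927001-134928450, ran for 1450 bases over MTND4P12, MTND4LP30 and MTND3P25. Some copies of the mitochondrial 16S RNA gene are annotated as humanin-like genes: MTRNR2L8 with MIR4485 had a locus of 850 bases, and MTRNR2L12 had one of 800. Because these copies match mitochondrial RNA, a nuclear origin of the reads cannot be told apart from a mitochondrial one. By GENCODE names they account for 16 of the 94 loci outside any class (17 with RefSeq names), 12 of them over a mitochondrial-like pseudogene of the same strand and 4 over AL669831.3, which runs opposite to the chromosome 1 copies.

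On mRNAs, wide loci belonged to 212 of 19019 protein-coding genes, a background of 1.11%. Of these genes, 162 had 1 wide locus, 27 had 2 and 23 had 3 or more, and 30 had no other locus at all. TTN, which encodes the giant sarcomere protein titin, had 34 wide loci of 200 to 600 bases among 311 loci of any width, and they held 8900 bases. Of those 34, 26 lay wholly in exons, 10 lay in exon 326 of 363 of the longest isoform, an exon of 17106 bases, and 7 lay nearer the 5′ end. APOB, which encodes the protein of low-density lipoprotein, had 10 wide loci of 200 to 500 bases, 6 of them in its exon 26 of 7572 bases. AHNAK, a giant scaffold protein gene, had 6, all in the last exon of 18170 bases. C3, the central complement protein, had 5, and 4 each lay on SERPINA3 (antichymotrypsin), FGB (fibrinogen beta), ACTG1 (cytoplasmic gamma actin), GFRA1 (a GDNF receptor), FN1 (fibronectin), C4B (complement) and COL1A1 (collagen I). The readthrough gene AL049839.2 shares the SERPINA3 loci. Loci numbered 3 each on EGFR (the epidermal growth factor receptor), CD24 (a surface glycoprotein) and IGFBP5 (an insulin-like growth factor binding protein), and 2 each on CLDN4 (a tight junction claudin), AZGP1 (a secreted zinc-binding glycoprotein) and TGM2 (a transglutaminase). C4A and C4B, HP and HPR, SAA1 and SAA2 and HSPA1A and HSPA1B are near copies, so their loci may share reads and cannot be told apart.

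Several genes of blood plasma proteins were covered over long stretches. The locus of 1800 bases over CRP (C-reactive protein), chr1:159712301-159714100 on the minus strand, filled 97.3% of the last exon, and with a second locus of 200 bases 97.5% of all exonic bases of the gene lay under wide loci. FGA (fibrinogen alpha) had loci of 1600, 300 and 200 bases that held 53.1% of its exonic bases, and the widest covered 98.7% of exon 5. HP (haptoglobin) had 950 bases over its last exon, and HPR 900. APOE (a lipoprotein ligand) had 700 and 200 bases, 40.7% of its exonic bases. SERPINA1 (alpha-1 antitrypsin) had 650, 400 and 300 bases, and CREB3L3, a transcription factor of liver, had a UTR locus of 750. Of 48 plasma proteins made mainly in liver, 26 had a wide locus, against the background of 1.11% of protein-coding genes. A locus of some width lay on 46, and the share of all genes with one is not given here. Albumin, APOA1, TF and TTR were among the 22 without a wide one. That list was written after wide loci had been seen, so its count is no independent evidence, and the tissue the reads came from was not tested.

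Genes of striated muscle were counted from a list also written after the loci were seen. Of 31, 10 had a wide locus, against the background of 1.11%, and 30 some locus. Besides TTN these were NEB (3 loci, nebulin of the thin filament), MYH2 (3, a fast myosin), ACTA1 (2, skeletal actin) and 1 each on PYGM, DES, KLHL41, MB, MYH1 and MYH7, whereas CKM, RYR1 and ACTN2 had none. In a list of 21 heat shock proteins and chaperones, likewise written afterwards, 9 had one, against the same 1.11%. HSPA1A led with 3 and HSP90AA1 followed with 2.

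The other gene lists had been drawn up with results of these data known. Of 12 abundant housekeeping genes, 9 had a wide locus, among them ACTG1 (1200 bases in 4 loci), HSP90AA1 (500 in 2) and EEF2 (400 in 1), with EEF1A1, HSP90AB1 and PKM among those without. Of 13 matrix genes, 6 had one, led by FN1 and COL1A1, whereas COL3A1 and POSTN did not. Of 15 genes of breast epithelium, 5 had one: KRT19 had 2, and ERBB2, XBP1, SCGB2A2 (mammaglobin) and PIP had 1 each, while ESR1, GATA3 and KRT8 had only narrower loci. Among 10 antigen and immunoglobulin genes, 5 had one. IGHG1 had 3 (1050 bases), HLA-B 2, B2M and CD74 1 each, and IGKC, the kappa constant region, was covered over 100% of its 523 exonic bases by a locus of 550. Of 71 replication-dependent histone genes, 5 had one, and HIST1H3B was covered over 73.0% by 300 bases. The background of protein-coding genes is the 1.11% given above. IGHG1 and IGKC are typed as immunoglobulin constant genes and are not in it, and no share was tested.

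**Figure D5:**
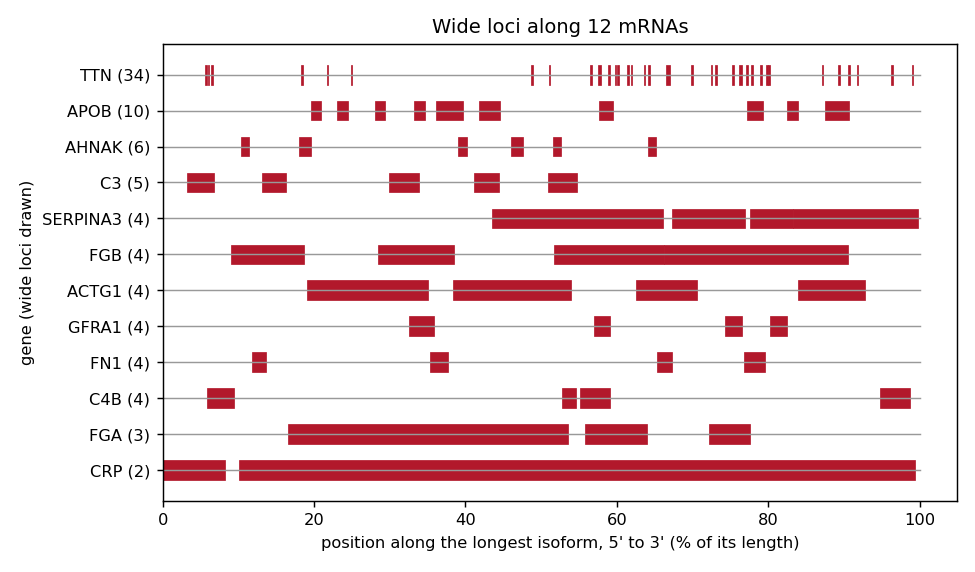
Wide loci (red) along the longest isoform of 12 protein-coding genes, by position from 5′ to 3′ in percent of the isoform's length, with the number of loci in parentheses. A locus is drawn by its bases in the exon around its midpoint. CRP and FGA are filled over long stretches, loci in neighbouring exons of FGB and SERPINA3 touch where the intron is left out, and the loci of TTN and APOB are scattered along the mRNA.

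Loci on mRNAs followed exons. Of 312 CDS and UTR loci, 298 could be placed on the longest isoform of 181 genes. The part with most bases was coding in 204, the 3′ UTR in 80 and the 5′ UTR in 14. They touched 1 exon in 288 cases and 2 or more in 10, and 184 (61.7%) lay wholly within exons. The exon beneath a wide locus had a median length of 676.5 bases, against 250 for loci of 100 to 150 bases and 301 for those of 50 or fewer. The choice by width favours long exons by itself, and its part in this difference was not tested. Of the 288 on 1 exon, 77 (26.7%, 21.7 to 32.2) covered at least 80% of it. SERPINA1 exon 4, of 650 bases, held a locus of 650 that covered 98.6% of it, and SERPINA3 exon 5, of 444 bases, one of 450 that covered 99.1%. In FGB, loci of 200 and 300 bases covered exons 2 and 7 (192 and 286 bases) whole. Of the 288, 145 (50.3%) lay in the last exon. The share of narrower loci in the last exon was not computed. TRIM25, a ubiquitin ligase, had 450, 200 and 300 bases in its last exon with 100 bases between neighbours, GFRA1 had 4 loci in its last exon of 7612 bases, and SOD2 (mitochondrial superoxide dismutase) had 600 and 450 bases in the UTR and 200 bases that touched coding sequence, all in its last exon.

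Position along the mRNA was set beside that of narrower loci. Of the 298, 128 (43.0%, 37.3 to 48.8) lay nearer the 5′ end, against 60.8% of loci of 100 to 150 bases and 63.0% of those of 50 or fewer. Without TTN it was 45.8% (39.7 to 52.1). Counting each gene once, 80 of 181 genes (44.2%, 36.8 to 51.8) leaned to the 5′ end. In the genes that carry a wide locus, 55.1% (52.2 to 58.1) of loci of 50 bases or fewer lay nearer the 5′ end. The difference was not tested, and neither was the part that the choice by width plays in it. Base composition was close to that of the mRNA, with a median GC content of 51% in wide loci, and the locus exceeded its own transcript by a median of 0.115 percentage points, against 1.57 for loci of 50 bases or fewer in all genes and 0.369 for those in the genes with a wide locus.

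Strand went with the annotated gene. Whatever the class of the locus, CDS or UTR lay under 329 wide loci on the same strand only, under 3 on the opposite strand only (IGFN1, TRIM41 and LANCL2) and under 3 on both, a same-strand share of 99.1% (97.4 to 99.8) among loci with CDS or UTR on 1 strand. Over the whole set, 243 loci were on the plus strand and 343 on the minus (41.5% plus, 37.4 to 45.6), with 85 plus and 163 minus in CDS, where the 34 loci of TTN and the 10 of APOB were all on the minus strand. A locus of the other strand overlapped 32 wide loci, and 13 of these overlaps were with a wide one.

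Among lncRNAs, 24 of 15711 genes had a wide locus on an exon (a background of 0.153%), and MALAT1, an abundant RNA of nuclear speckles, had the most with 8. These loci held 4000 bases, 45.3% of its exonic bases. They ran from base 2614 to base 8463 of the 8829-base gene and filled 68.4% of that span with gaps of 100 to 700 bases, whereas the 6 loci upstream of it were all narrower. The widest were chr11:65501101-65501950 (850 bases) and chr11:65503051-65503800 (750 bases). The last, 350 bases, ended inside RF01684, which RefSeq calls MASCRNA, the tRNA-like small RNA that is cut off the 3′ end of MALAT1. The locus held its first 34 bases of 57. Bases 20 to 49 of the transcript are shown (GENCODE v29, GRCh38, chr11:65506136-65506165, plus) because the locus ends in them, with the bases inside in capitals.
RF01684: CCTGGTTTCCAGGACggggttcaaatccct

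NEAT1, the scaffold RNA of paraspeckles, had 45 loci of any width but only 4 wide ones, of at most 250 bases, that held 4.17% of its exonic bases. KCNQ1OT1 and MEG3 had none. Of 14 lncRNA hosts of snoRNAs, SNHG3 and SNHG6 had a wide locus each, and those were the loci of the snoRNAs SNORA73A and SNORD87 within them. GAS5, SNHG1 and SNHG14 had only narrower loci.

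The 94 wide loci outside any class were split by what else lay under them. Of them, 3 held an annotated rRNA gene, 4 a tRNA gene, 12 a mitochondrial-like pseudogene and 19 another pseudogene, with AL669831.3 under 4 and AC008134.1, which RefSeq names MTCO1P58, under 1. A further 17 had a gene on the opposite strand only, in 13 of these an intron and in 2 a CDS or UTR. The other 2, of 2900 and 1100 bases, lay opposite lncRNA exons and within 5 kb of an rRNA gene or copy. RefSeq has a pseudogene under each, and they held 4000 of the 7600 bases of the 17. The last 39 (41.5%) had no GENCODE gene on either strand, with a median width of 350 bases and 19750 bases in all.

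Several of the pseudogenes are copies of mRNAs. RPL7P9, RPL7P23, RPL7P1 and RPL7P32 each had a single locus of 250 bases, against 4 loci of at most 50 bases on the parent RPL7, which encodes a protein of the large ribosomal subunit. HSP90AB2P and HSP90AB3P had wide loci of 200 and 250 bases, against 11 loci of at most 150 bases on the parent HSP90AB1, a chaperone gene. MT2P1 had a locus of 300 bases, against loci of at most 150 on its parent MT2A, a metallothionein. KRT19P1 with 250 bases and TUBBP1 with 300 have parents with wide loci of their own, of up to 250 bases on KRT19 and 200 on TUBB. Reads of a parent and its copy cannot be told apart in this list, and how they were placed was not tested.

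The 39 loci with no gene were partly grouped. With loci within 5000 bases joined, they formed 27 runs, and 6 runs of at least 2 loci held 18 of them. RefSeq had a gene under 18, and for 17 it was a ribosomal RNA or another pseudogene, such as RNA18SP under chr22:11629501-11631100 (1600 bases, plus) and RNA28SP under chr2:132279301-132280000 (700 bases, minus). The widest was chr20:30486151-30487850 (1700 bases, minus), within 5 kb of a 5.8S copy that GENCODE names RF00002. GENCODE placed an rRNA gene or copy, each a 5.8S one, within 5 kb of 12 of the 39 (30.8%, 17.02 to 47.6). The count was 9 of 33625 for loci of 50 bases or fewer with no gene on either strand (0.0268%). This search left out copies that only RefSeq names, such as RNA18SP and RNA28SP, so 12 is an undercount. For 18 of the 39, RefSeq had no gene beneath and the same search found no rRNA within 5 kb. The widest of these were chr21:8250501-8251550 (1050 bases, plus) and chr14:105192201-105192800 (600 bases, minus). The first opens the run of 6 loci on chromosome 21 that holds a 5.8S gene without a 45S entry. RefSeq places RNA18SP5 under a later locus of that run. Another of the 18, chr2:132278951-132279200, lay 100 bases from a locus over RNA28SP. RefSeq copies near but not under a locus were thus not counted. Over all 39, 15 lay more than 10 kb from any GENCODE gene. RefSeq had a gene under some of these, such as RNA18SP under the chromosome 22 locus named above.

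Wide loci were unevenly spread over chromosomes. Chromosome 2, the site of TTN and APOB, had 82, chromosome 17, the site of the U2 array, had 67 (1.70% of its loci), and chromosome 11 had 54, whereas chromosome 18 had 3 (0.114% of its loci). Chromosome 21 had 21 loci but 50750 bases, most of them in the ribosomal RNA window. Wide loci often had neighbours: for 132 the next locus of the strand was 100 bases away, the smallest gap that occurred anywhere, for 379 it lay within 1 kb, and for 91 it was more than 10 kb off. The median gap was 325 bases. No gap under 100 bases occurred among loci of 1 strand, and 761 gaps were of exactly 100. With loci up to 100 bases apart joined, 1145 loci reached 200 bases.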

How the data were processed

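The authors deposited 1 list of loci in BED form on hg38, with a score of 1 in each row, so the score carries no level. Per the submitters' processing notes the tools were cutadapt, Bowtie2 2.2.8, SAMtools and bedtools. Piranha settings, multiple-mapping rules and the number of TCGA samples are unstated in the sources used here. None of the 9 libraries has a column (0 of 9). The knockdown comparison planned with edgeR could therefore not be made, and depth is unknown.

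Positions were converted to a count from 1. Each locus on chromosomes 1 to 22 received 1 GENCODE v29 class where it shared any base with a feature of its strand, in the order miRNA, snoRNA, snRNA, misc_RNA, CDS, UTR, lncRNA, intron, none. The tRNA genes (429 nuclear entries, strand ignored) and rRNA genes came from the RefSeq table of GRCh38.p14. The classes of 540 planted or random loci equalled those of a plain linear scan in 540. No test was run. Members and lists were chosen with earlier results of these data known, and the lists of liver plasma proteins, striated muscle and heat shock genes were written after wide loci were seen. Named genes are the widest loci overall and per class, loci over most small RNAs, genes with most wide loci, list members by bases covered, and loci at the width limit. Examples of exon coverage, further genes with 2 or 3 wide loci, and the parents of pseudogenes were chosen after their values were seen. Computation used Python 3.11.15, numpy 2.4.6, scipy 1.17.1 and matplotlib 3.10.9.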

Additional observations from a re-analysis of the deposited data

How the results depend on the processing

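Of 95 recomputed counts, 59 stayed within 1.5 times the reported one. With a width of at least 150 bases, 1649 loci qualified, with 62 on miRNAs, 120 on snoRNAs, 49 on misc_RNA, 641 in CDS, 196 in UTR, 41 in lncRNA exons, 113 in introns and 367 in no class. With at least 300 bases, 204 qualified, with 10 on miRNAs, 7 on snoRNAs, 11 on snRNAs, 2 on misc_RNA, 71 in CDS, 21 in UTR, 10 in lncRNA exons, 22 in introns, 50 in no class and 13 over several small RNAs. Requiring a feature to fill 50% of the locus gave 12 on miRNAs, 98 in UTR, 59 in introns and 12 over several small RNAs, and the middle base gave 8 on miRNAs, 97 in UTR and 61 in introns. With strand ignored, introns held 58 against 37, and no class held 63 against 94, which stayed within 1.5 times. Joining loci up to 100 bases apart, chosen after seeing the data as was leaving out the ribosomal window, gave 1145 loci, 42 on miRNAs, 64 on misc_RNA, 484 in CDS, 167 in UTR, 83 in introns, 186 in no class and 31 over several small RNAs. The cause was not tested where overlap, strand or joining moved a count. Joining loci less than 50 bases apart could change nothing, since no gap was under 100 bases, and is not in these counts. The middle-base rule gives no value for several small RNAs. No paired analysis was possible because the list has no columns for the replicates. Without levels or depth, a locus that just missed Piranha's threshold cannot be told from an absent one.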
